A study of Bos taurus and Sus scrofa with 10 samples.

Results

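The ubiquitin-specific proteases (USPs), a large family of enzymes that remove ubiquitin from proteins, and the E2 ubiquitin-conjugating enzymes (UBE2 genes) were followed by RNA sequencing through preimplantation development in the cow (Bos taurus) and the pig (Sus scrofa). Members were chosen by symbol alone: every row named USP with a number, or UBE2 with a letter, was taken, apart from 2 USP symbols and rows on chromosome Y. This gave 82 different symbols of the 28050 in both tables. The cow table held 77 of them (46 USPs and 31 E2 genes) among 22845 rows. In pig there were 62 (38 USPs and 24 E2 genes) among 21867 rows, and 57 were in both tables.

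Each species was sampled as oocytes, 2-4 cell embryos, 8-16 cell embryos, morulae and blastocysts. Total RNA of each stage gave 1 library per species, 10 libraries in all, so no difference below has a replicate check and no test between stages was possible. The labels name no treatment or genotype, and they do not give the breed, the age of the animals, the maturation or fertilisation of the oocytes, the culture of the embryos, or how many oocytes or embryos were pooled. By its title the study was about DNA methylation in preimplantation embryos, so the ubiquitin enzymes were measured without being its subject.

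Ubiquitin is attached to proteins by a cascade of an activating enzyme (E1), a conjugating enzyme (E2) that carries the ubiquitin, and a ligase (E3) that selects the substrate. A chain of ubiquitin can send the substrate to the proteasome or change its activity, place or partners, and deubiquitinases such as the USPs cut the ubiquitin off again. In oocytes and early embryos the system is known for the exit from meiosis, for removing proteins stored in the egg, and for the cell divisions that follow. A few E2 genes serve other small proteins in place of ubiquitin: UBE2M and UBE2F serve NEDD8, and UBE2L6 serves ISG15.

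Levels are given as RPM, reads per 1000000 library reads, which compare a gene between stages and not genes of different length. Library totals ran from 3002751 reads (pig morula) to 14182046 reads (cow blastocyst), and 3 reads, the upper limit that a count of 0 allows, were worth 0.212 to 0.999 RPM. The mitochondrial share of reads was 4.40% at the cow oocyte and 30.2% at the cow blastocyst, against 6.06% and 18.6% in pig. The stage labels were checked with marker genes. From oocyte to blastocyst 12 of 12 oocyte markers were lower by the threshold below in cow (summed level 6676 to 0.353 RPM, 10 of 12 at 0 reads) and 11 of 11 in pig (8409 to 23.6 RPM, 6 of 11 at 0 reads). Of the blastocyst markers 9 of 10 were higher and 1, ATP1B1, was lower in cow (summed level 135 to 3607 RPM), and 10 of 11 were higher in pig (35.2 to 7732 RPM). Markers of cumulus cells, which surround the oocyte, summed to 44.1 to 978 RPM across the cow stages and 108 to 2146 RPM across the pig stages, highest at the blastocyst in both. There PTGS2 alone made up 902 RPM in cow, where 8 of 12 of these markers were at 0 reads, and 1809 RPM in pig, where 3 of 9 were. Before the blastocyst the cow sum was 398 RPM in the oocyte library and 305 RPM at the 2-4 cell stage. It was 89.3 RPM at the 8-16 cell stage and 44.1 RPM in the morula. The sum in the pig oocyte library was 134 RPM. The part of such cells in the results below was not tested.

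Nearly all members were detected. In cow 75 of 77 members reached 1 RPM in at least 1 library, and the exceptions were UBE2L6 and USP18, with at most 4 reads in any library. In pig 56 of 62 reached it. The other 6 were UBE2D1 and UBE2NL, with 0 reads in every library, and UBE2N, USP20, USP26 and USP51, with at most 4 reads. The pig row named UBE2N lies on chromosome X (110826333 to 110826781) and is 449 bases long, so its few reads may not stand for the gene that makes signalling chains of ubiquitin. USP18 and UBE2L6 are the protease and the conjugating enzyme of ISG15, a modifier made in the interferon response, and in pig they stood at no more than 3.33 and 2.33 RPM, both in the morula library.

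**Figure D1:**
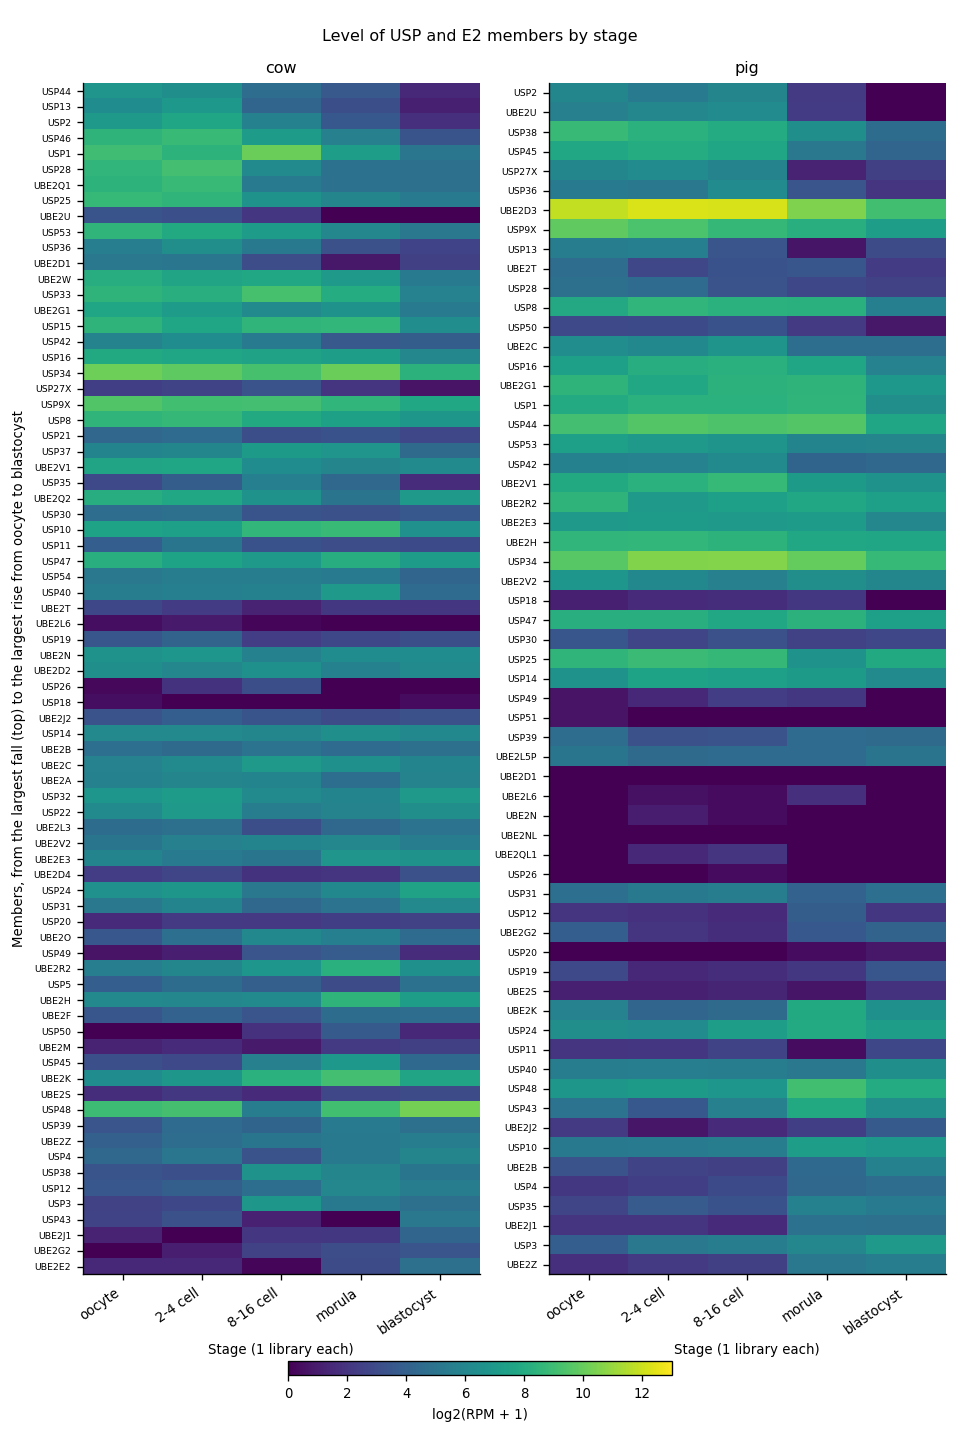
Level of the members at the 5 stages, 1 library each, as log2(RPM + 1) on a shared colour scale, with 0 reads shown as 0. Rows are members, from the largest fall between oocyte and blastocyst at the top to the largest rise at the bottom, so a row reads across stages and rows are not to be compared with each other. In both species the USP2, UBE2U and USP13 rows near the top are darker at the blastocyst than at the oocyte, and the UBE2J1 and USP3 rows near the bottom are brighter. The pig USP13 row is darkest at the morula.

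The difference of a gene between stages is that of its log2(RPM + 1) values. Genes that reached 1 RPM in either library were compared, and a gene was called higher or lower from a difference of 2 upward, that is 4-fold on this scale. Folds are ratios of RPM with 95% intervals for counting error only. RNA was taken from whole oocytes and embryos, so fewer cells with a transcript and less transcript per cell cannot be told apart.

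From oocyte to blastocyst more members were called lower than higher in both species. In cow 17 of 74 compared members were lower and 5 were higher, beside 18.4% lower and 21.8% higher among all 12738 genes compared. In pig 14 of 53 were lower and 6 were higher, beside 19.2% and 26% among 12512 genes. The member median difference was -0.32 in cow, where all genes had 0.18, and -0.86 in pig, where all genes had 0.43. In cow the sign of that median turned with the scaling, to 0.00 with median scaling and 0.08 with scaling to non-mitochondrial reads, while the median of all genes moved to 0.54 and 0.59, so the members stayed below all genes by a like amount. In pig the member median was -0.65 and -0.76 under the same scalings, with 0.65 and 0.53 for all genes.

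The medians of the USPs and the E2 genes lay apart in cow, while their shares of lower members were close. Of 44 cow USPs compared, 11 were lower (25%) and 2 higher with a median difference of -0.97. Of 30 cow E2 genes 6 were lower (20%) and 3 higher with a median of 0.22, and the share of lower genes in the whole cow table was 18.4%. In pig 10 of 34 USPs were lower and 3 higher (median -0.80), and 4 of 19 E2 genes were lower and 3 higher (median -0.90), beside 19.2% lower and 26% higher among all pig genes. The stage of the lowest level was also counted. Among cow USPs with at least 1 RPM in a library, 23 of 45 (51.1%) had their lowest level in the blastocyst library, against 3 of 30 cow E2 genes (10%) and 25.4% of all cow rows. In pig the lowest level fell at the blastocyst for 16 of 35 USPs (45.7%) and 7 of 21 E2 genes (33.3%), beside 26.7% of all rows. With 1 library per stage, whether the families differ could not be tested.

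Among members compared in both species, 8 of 50 were called in both, all 8 in the same direction. That is 16% of the members compared, beside 22.7% (1942 of 8566) of all shared symbols, of which 1682 went the same way. With a pseudocount of 5 RPM in place of 1, 3 members were called in both. Among the 6 lower in both were USP2, USP13, USP28, USP36 and UBE2U, and the 2 higher in both were USP3 and UBE2J1. By sign alone 35 of 50 members moved the same way, beside 5864 of 8566 symbols. Coordinates below are those of the authors' tables, and the submitters' processing notes name the builds UMD3.1, a cow build, and Sscrofa11.1, a pig build.

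**Figure D2:**
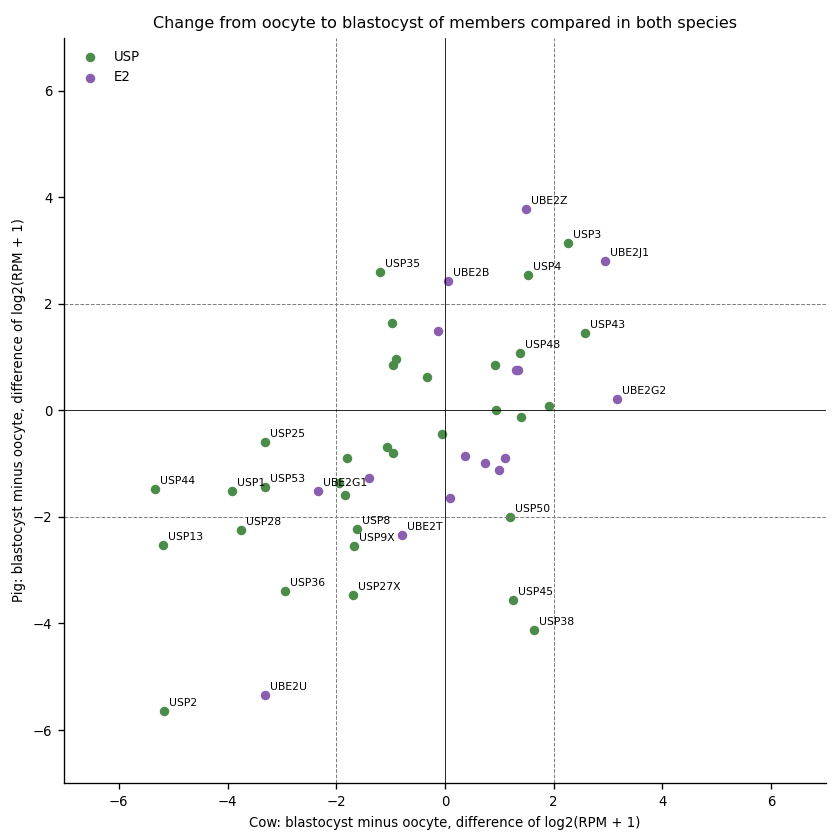
Difference of log2(RPM + 1) from oocyte to blastocyst in cow (x axis) and pig (y axis) for members compared in both species, USPs in green and E2 genes in purple. Dashed lines mark the threshold of 2. The lower left corner holds USP2, USP13, USP28, USP36 and UBE2U, lower in both, the upper right corner USP3 and UBE2J1, and USP38 and USP45 lie to the lower right, higher in cow by 1.64 and 1.25 and lower in pig by more than the threshold.

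USP2, a protease that acts on MDM2 and cyclin D1 among others, fell in both species, with differences of -5.17 in cow and -5.64 in pig. In cow (chromosome 15, 30464926 to 30487308) it stood at 127 RPM in the oocyte library, 203 at the 2-4 cell stage, 51.5 at the 8-16 cell stage, 10.8 in the morula and 2.54 in the blastocyst, a 49.9-fold fall (35.6 to 71.9). In pig (chromosome 9, 46563482 to 46590392) it stood at 60.7, 41.1, 60.0 and 3.66 RPM and then at 0 reads, at least 75.5-fold lower. The cow level thus came down from the 8-16 cell stage on, while the pig level was still at the oocyte's at the 8-16 cell stage and came down at the morula.

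USP13, a paralog of the protease USP5 that takes apart free ubiquitin chains, fell 66.3-fold in cow (40.9 to 115; chromosome 1, 87949654 to 88075267). Its cow levels were 79.5, 120.3, 17.7, 7.69 and 1.20 RPM from oocyte to blastocyst. In pig (chromosome 13, 117700075 to 117826950) they were 43.2, 47.6 and 9.79 RPM, then 2 reads at the morula and 6.70 RPM at the blastocyst, 6.45-fold below the oocyte (4.20 to 10.3). Both species had their high values before the 8-16 cell stage, and the pig blastocyst lay above the pig morula.

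USP28, which keeps MYC from being degraded and binds 53BP1 in the DNA damage response, fell 13.96-fold in cow (12.5 to 15.6; chromosome 15, 24669574 to 24733111) by way of 373, 551, 71.8, 28.5 and 26.7 RPM. In pig (chromosome 9, 41417562 to 41480991) the levels were 26.6, 22.7, 9.16, 5.99 and 4.83 RPM, a 5.52-fold fall (3.30 to 9.74). Most of the cow fall lay at the step to the 8-16 cell stage. USP36, a nucleolar protease linked to ribosome production, went through 45.4, 83.4, 37.2, 8.46 and 5.08 RPM in cow (chromosome 19, 54147233 to 54171261), an 8.95-fold fall (6.83 to 11.8). In pig (chromosome 12, 3309141 to 3348531) it went through 40.6, 35.8, 77.1, 9.66 and 2.95 RPM, a 13.8-fold fall (7.45 to 28.2), and its highest library was the 8-16 cell one.

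UBE2U, a member whose substrates are little known, fell from 9.53 RPM by way of 7.89 and 3.13 RPM to 0 reads in the morula and blastocyst libraries in cow, at least 45.1-fold (chromosome 3, 81575429 to 81652244). In pig (chromosome 6, 148233574 to 148304926) it stood at 49.4, 62.8, 75.5 and 4.00 RPM and then at 0 reads, at least 61.5-fold lower.

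USP3, a protease for ubiquitylated histones H2A and H2B, rose in both species with different courses. In cow (chromosome 10, 46471349 to 46570989) it stood at 4.87 and 6.08 RPM in the oocyte and 2-4 cell libraries, 119 at the 8-16 cell stage, 37.4 in the morula and 27.1 in the blastocyst, 5.56-fold above the oocyte (3.68 to 8.79). In pig (chromosome 1, 108414360 to 108515548) it stood at 13.9, 36.0, 44.9, 63.6 and 130.0 RPM, 9.34-fold above the oocyte (6.92 to 12.9). The cow profile peaked at the 8-16 cell stage, and each pig library was above the one before. UBE2J1, a membrane-anchored E2 that helps degrade misfolded proteins of the endoplasmic reticulum, went from 1.42 RPM by way of 0 reads, 3.13 and 3.33 RPM to 17.6 RPM in cow, 12.4-fold higher (5.94 to 31.2; chromosome 9, 61766993 to 61782483). In pig (chromosome 1, 57337082 to 57364621) it went through 2.96, 2.90 and 1.90 RPM to 28.0 RPM at the morula and 26.8 RPM at the blastocyst, 9.06-fold above the oocyte (4.72 to 19.5).

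**Figure D3:**
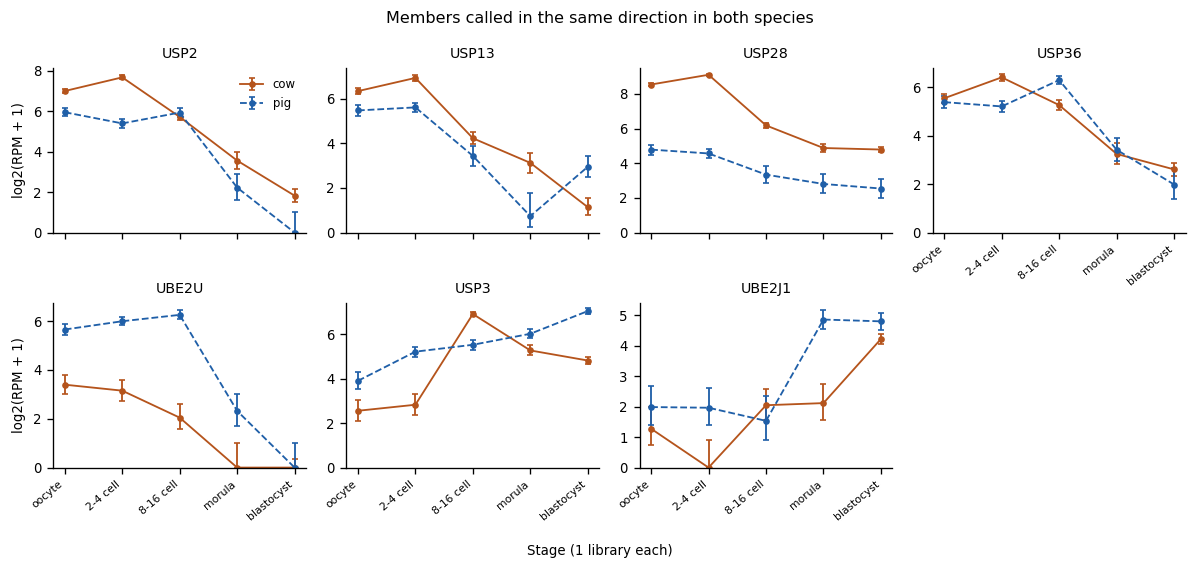
Levels of 7 members called in the same direction in both species, as log2(RPM + 1) at the 5 stages, cow in solid orange and pig in dashed blue, 1 library per point, with 95% Wilson intervals for counting error as bars. Levels of USP13 and USP28 are already lower at the 8-16 cell stage in both species. USP36 has its widest drop between the 8-16 cell stage and the morula in both, and pig USP2 and UBE2U drop there too. Cow USP2 falls at the step into the 8-16 cell stage and again at the step into the morula.

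Proteases that act on histones and DNA damage proteins, with their close paralogs, formed the largest role group. From oocyte to blastocyst 5 of 14 compared in cow were lower and 1 was higher (median -1.63), and in pig 3 of 10 were lower and 1 was higher (median -1.49). Among all genes 18.4% were lower and 21.8% higher in cow (median 0.18), and 19.2% and 26% in pig (median 0.43). USP44, which acts on the anaphase checkpoint and on histone H2B, had the widest cow difference of all members compared. It stood at 108, 87.0, 23.7, 11.5 and 1.69 RPM in cow, a 63.9-fold fall (42.5 to 101). In pig it stood at 557, 741, 668, 735 and 199.7 RPM, 2.79-fold lower at the blastocyst with a difference of -1.47, short of the threshold, and its pig span overlaps METAP2 on the opposite strand.

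USP1, which works with WDR48 on the Fanconi protein FANCD2 and on PCNA, turned within the cow series. Its cow levels were 522, 343, 1074, 157 and 33.4 RPM, with the peak at the 8-16 cell stage and a blastocyst level 15.6-fold below the oocyte (14.2 to 17.3). In pig they were 245, 315, 318, 359 and 85.3 RPM, a difference of -1.51 from oocyte to blastocyst. The pig span of USP1 overlaps another row on the opposite strand, and whether the counting used strand is not given in the sources used here. USP46, which shares the partners WDR48 and WDR20 with USP12, fell 37.3-fold in cow (31.3 to 44.9), by way of 347, 454, 146, 49.0 and 9.31 RPM. USP12 itself was at 10.5, 14.2, 24.7, 62.8 and 42.2 RPM in cow, with a difference of 1.90. The cow differences of these close paralogs thus had opposite signs, and how reads matching both were placed is not given in the sources used here. WDR48 and WDR20 were both lower in cow, from 126 to 9.59 RPM and from 194 to 29.5 RPM.

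The histone proteases USP16, USP21 and USP22 did not pass the threshold from oocyte to blastocyst. USP16, an H2A protease, had differences of -1.84 in cow (234 to 64.7 RPM) and -1.59 in pig (161 to 52.5 RPM). USP21 went from 18.9 to 5.71 RPM in cow, a difference of -1.57. USP22, the protease of the SAGA coactivator, went from 70.8 to 85.5 RPM in cow, a difference of 0.27. Its paralog USP27X, an intronless X-linked gene, fell in pig from 60.7, 76.1 and 55.0 RPM to 1.33 RPM at the morula and 4.56 RPM at the blastocyst, 13.3-fold below the oocyte (8.12 to 23.3). In cow USP27X stood at 4.26 RPM in the oocyte and 0.635 RPM in the blastocyst library, a difference of -1.69. ATXN7L3, the SAGA subunit that activates USP22, USP27X and USP51, had 0 reads in the oocyte and 2-4 cell libraries of both species and reached 14.2 RPM in the cow and 21.7 RPM in the pig blastocyst library. USP48 took an unusual course in cow: 476 and 575 RPM, then 44.9 RPM at the 8-16 cell stage, and 532 and 1244 RPM in the morula and blastocyst libraries. In pig it stood at 119, 134, 113, 542 and 252 RPM, and neither difference from oocyte to blastocyst passed the threshold (1.38 in cow and 1.08 in pig).

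Of the proteases linked to the proteasome and to free chains, USP13 was lower in both species, 1 of 3 compared in cow and 1 of 2 in pig. None was higher. The shares of all genes were 18.4% lower and 21.8% higher in cow, and 19.2% and 26% in pig. Lists of 3 and 2 genes allow no group trend to be read from them. USP14, which sits on the proteasome, differed by -0.05 in cow (68.0 to 65.6 RPM) and by -0.45 in pig (102 to 74.3 RPM). USP5 went from 13.8 to 29.1 RPM in cow, a difference of 1.02. Of the proteases of membranes, endosomes, mitochondria and the endoplasmic reticulum, 2 of 7 were lower in cow (USP2 and USP33). In pig 2 of 4 were lower (USP2 and USP8), and none was higher in either species. Among all genes 18.4% were lower and 21.8% higher in cow, and 19.2% and 26% in pig. USP2, described above by other substrates, is among the lower ones in both species. USP8, which spares endosomal receptors from degradation with its partner STAM, had 229, 380.3, 313, 299 and 48.5 RPM in pig, a 4.73-fold fall (4.02 to 5.59), and the difference came to -1.99 with median scaling. STAM itself went from 359 to 58.4 RPM in pig, also past the threshold. In cow USP8 went from 361 to 118 RPM, a difference of -1.61, while STAM went from 46.9 to 44.4 RPM, a difference of -0.08. STAM2 was called in neither species (0.10 in cow and -0.72 in pig).

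Among USPs outside these groups, USP9X, a large X-linked protease that stabilises MCL1 and other proteins, was lower at the pig blastocyst by 5.90-fold (5.39 to 6.46), by way of 901, 631, 401, 279 and 153 RPM. In cow it stood at 712, 525, 554, 379.8 and 223 RPM, a difference of -1.67. USP25, the closest paralog of USP28, fell 10.1-fold in cow (417, 361, 102, 58.5 and 41.1 RPM) and in pig stood at 362, 467, 399.5, 101 and 240.2 RPM, a difference of -0.59. USP34, which acts on axin in WNT signalling, differed by -1.80 in cow (1119 to 321 RPM) and -0.88 in pig (775 to 419.6 RPM). Other members lower in cow were USP53 (10.1-fold), USP33 (6.52-fold) and USP15 (4.33-fold). The only other USP higher at the cow blastocyst was USP43, which had 5.27, 8.34 and 1.29 RPM, 0 reads at the morula and 36.2 RPM at the blastocyst, 6.87-fold above the oocyte (4.64 to 10.6). In pig USP43 stood at 30.2, 10.9, 49.0, 238 and 83.9 RPM, a difference of 1.44, and its pig span overlaps DHRS7C. USP4, which shares substrates with its paralog USP15, rose in pig from 3.26 to 23.9 RPM (7.33-fold, 3.90 to 15.2) and went from 20.1 to 59.4 RPM in cow, a difference of 1.52.

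Of the E2 genes that hand ubiquitin to many ligases, 1 of 7 compared in cow was higher and 2 were lower. In pig 1 of 2 was lower. Among all genes 21.8% were higher and 18.4% lower in cow, and 26% and 19.2% in pig. Lists this short allow no group trend to be read from them. UBE2D3 in pig (chromosome 8, 118202795 to 118233296) had 3521, 4909.6, 4765, 1435 and 527 RPM, a 6.68-fold fall (6.37 to 7.01). A short second pig row of that symbol on chromosome 6 (91833831 to 91834560) ran from 37.6 to 3.75 RPM and was not used. In cow UBE2D1 fell 8.09-fold (6.05 to 10.9), by way of 36.5, 33.1, 7.36 and 0.769 RPM (3 reads) to 4.51 RPM, while UBE2D2 lay between 51.0 and 92.2 RPM, with a difference of -0.31. The UBE2D genes are close copies of each other, so the split of reads among them is uncertain. UBE2W, which puts ubiquitin on the start of a protein, fell 6.60-fold in cow (277 to 42.0 RPM). UBE2L3, which works with HECT and RBR ligases, differed by 0.36 in cow (23.1 to 30.0 RPM). UBE2E2 rose in cow from 1.83 and 1.80 RPM by way of 1 read at the 8-16 cell stage and 6.92 RPM to 27.1 RPM, 14.8-fold (7.73 to 32.7).

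The E2 genes of degradation at the endoplasmic reticulum included 2 of 4 higher and 1 of 4 lower in cow, and 1 of 4 higher in pig. Among all genes 21.8% were higher and 18.4% lower in cow, and 26% were higher in pig, so the pig count is near the share of all genes and lists of 4 allow no more to be read from them. UBE2J1 was higher in both, as above. UBE2G2 had 0 reads in the cow oocyte library and 1.13, 4.79, 7.44 and 9.66 RPM after it, at least 15.9-fold higher at the blastocyst. In pig UBE2G2 stood at 13.9, 2.90, 2.21, 11.0 and 16.4 RPM, a difference of 0.22, low at both cleavage stages. UBE2G1, which also extends chains on substrates of cullin ligases, fell 5.13-fold in cow (200.2 to 39.0 RPM) and differed by -1.52 in pig (349 to 121 RPM). UBE2J2 differed by -0.12 in cow and by 1.49 in pig (3.55 to 11.8 RPM).

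The 2 E2 genes of the anaphase-promoting complex, the ligase that ends each mitosis and meiosis, passed the threshold from oocyte to blastocyst in neither species. UBE2C, which starts its chains, stood at 53.6, 70.5, 126, 91.0 and 56.8 RPM in cow, a difference of 0.08. In pig it stood at 81.4, 65.0, 106, 24.6 and 25.2 RPM, a difference of -1.65, with the drop at the morula (4.32-fold from the 8-16 cell stage). UBE2S, which extends them, had 2.23 and 7.19 RPM in the cow oocyte and blastocyst libraries (1.25 to 4.00 and 5.93 to 8.73), a difference of 1.34, and 1.18 and 2.68 RPM in pig, where the intervals overlapped (0.461 to 3.05 and 1.46 to 4.94).

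Of the E2 genes of signalling chains none was called from oocyte to blastocyst in either species, of 3 compared in cow and 2 in pig. Pig UBE2N was not compared. The shares of all genes were 21.8% higher and 18.4% lower in cow, and 26% and 19.2% in pig. Lists this short allow no group trend to be read from them. UBE2N differed by -0.33 in cow (99.8 to 79.1 RPM). Its partners UBE2V1 and UBE2V2, which lack the catalytic cysteine, differed by -1.40 and 0.37 in cow (190.5 to 71.6 and 32.7 to 42.6 RPM). In pig UBE2V1 went from 237 to 97.6 RPM and UBE2V2 from 112 to 60.9 RPM, differences of -1.27 and -0.86. Of the E2 genes of DNA damage tolerance, UBE2A and UBE2B (the RAD6 pair) differed by 0.09 and 0.06 in cow (51.5 to 54.7 and 25.8 to 26.9 RPM). UBE2B rose 5.86-fold in pig (3.97 to 8.91), with 8.88, 5.32, 4.42, 20.6 and 52.0 RPM, and its whole pig span of 15022 bases lies within a region shared with CDKN2AIPNL on the opposite strand. UBE2T, the E2 of the Fanconi pathway, fell in pig from 24.3 RPM by way of 5.80, 8.84 and 9.99 RPM to 4.02 RPM (6.04-fold, 3.46 to 11.3) and went from 6.09 to 3.103 RPM in cow, a difference of -0.79.

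Of the remaining E2 genes, UBE2Q1 fell 12.9-fold in cow (11.5 to 14.5), with 341 and 438 RPM before and 38.1, 27.7 and 26.4 RPM from the 8-16 cell stage on. UBE2Z, which takes ubiquitin from the second ubiquitin E1, UBA6, rose 19.0-fold in pig (9.43 to 44.8), with 2.37, 3.62 and 4.42 RPM before and 35.6 and 45.0 RPM in the morula and blastocyst libraries. In cow UBE2Z went from 14.6 to 42.8 RPM, a difference of 1.49, and its span overlaps that of SNF8 in both species. UBE2K, which builds degradation chains, peaked at the morula in both species, at 562 RPM in cow (78.5 in the oocyte library, 195 at the blastocyst) and 239 RPM in pig (53.9 and 92.2). Both NEDD8 enzymes of cow stood higher at the blastocyst without passing the threshold: UBE2M went from 1.42 to 4.51 RPM and UBE2F from 10.1 to 24.0 RPM, differences of 1.19 and 1.16. UBE2O went from 10.8 to 22.2 RPM by way of 67.2 RPM at the 8-16 cell stage in cow, a difference of 0.98. Members not called from oocyte to blastocyst ranged from -1.95 (USP42) to 1.90 (USP12) in cow and from -1.65 (UBE2C) to 1.64 (USP10) in pig.

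The steps between consecutive stages show when these differences arose. From oocyte to the 2-4 cell stage no member was called in either species, with 74 compared in cow and 55 in pig. All genes gave 0.196% higher and 0.178% lower in cow, and 3.26% higher and 2.17% lower in pig. The widest member differences at this step were those of USP26 (1.62), USP11 (1.21) and UBE2O (1.18) in cow and UBE2G2 (-1.94), UBE2T (-1.89) and UBE2K (-1.52) in pig, all short of the threshold.

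At the step into the 8-16 cell stage 4 of 75 cow members were higher and 7 were lower, beside 12.6% and 14.6% of all genes. The 4 higher ones were all USPs: USP3 (19.5-fold), USP38 (12.3-fold), USP49 (8.82-fold) and USP45 (7.73-fold). USP48 (12.8-fold), UBE2Q1 (11.5-fold), USP28 (7.67-fold), USP13 (6.81-fold), USP43 (6.47-fold) and UBE2D1 (4.50-fold) were among those lower. The split was 6 higher and 5 lower with median scaling and 7 and 6 with scaling to non-mitochondrial reads. In pig this step had 1 of 55 members higher, USP43 (4.50-fold), and 1 lower, USP13 (4.86-fold), beside 4.33% and 0.543% of all genes. With median scaling the pig split was 0 higher and 1 lower.

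At the step into the morula the pig counts were larger. In pig 7 of 56 members were higher and 9 were lower, beside 12% and 11.3% of all genes. USP27X fell 41.3-fold here (15.8 to 153), UBE2U 18.9-fold, USP2 16.4-fold and USP36 7.98-fold, USP45 and UBE2C were also lower, and USP13 and USP11 came down to 2 reads and 1 read. UBE2J1 rose 14.8-fold, UBE2K 11.0-fold, UBE2Z 8.06-fold and USP12 7.03-fold, and USP35, USP43 and USP48 were higher too. In cow 3 of 75 members were higher and 5 lower, beside 6.67% and 5.15% of all genes. Cow USP48 came back 11.8-fold and UBE2H rose 4.92-fold, and UBE2E2 rose from 1 read. USP26, an X-linked intronless protease, went from 7.73 RPM to 0 reads, at least 10.05-fold lower, USP1 fell 6.86-fold, USP2 4.79-fold and USP36 4.39-fold, and UBE2D1 came down to 3 reads.

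From morula to blastocyst 12 of 73 cow members were lower and 3 were higher, beside 11.5% and 11.9% of all genes. All 12 lower ones were USPs, of 44 compared, and none of 29 E2 genes was lower. USP35 (9.03-fold), USP50 (7.12-fold), USP44 (6.82-fold), USP45 (5.95-fold) and USP49 (5.87-fold) led them, followed by USP40, USP46, USP37, USP33, USP15, USP10 and USP1 with 4.69 to 5.80-fold. USP43, at least 47.1-fold, UBE2J1 (5.29-fold) and UBE2Q2 (4.11-fold) were higher. This split rested on the scaling: with median scaling 5 were higher and 4 lower, and with scaling to non-mitochondrial reads 6 and 8, and the mitochondrial share of reads was 9.15% at the cow morula and 30.2% at the cow blastocyst, whose part in the split was not tested further. In pig 2 of 55 members were higher and 3 were lower, beside 13.8% and 13.8% of all genes. USP8 (6.16-fold), USP1 (4.22-fold) and UBE2U (at least 4.97-fold) were lower, and USP13 and USP11 rose from the 2 reads and 1 read of the morula library. The pig split was 2 higher and 1 lower with median scaling, and 2 and 6 with scaling to non-mitochondrial reads.

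**Figure D4:**
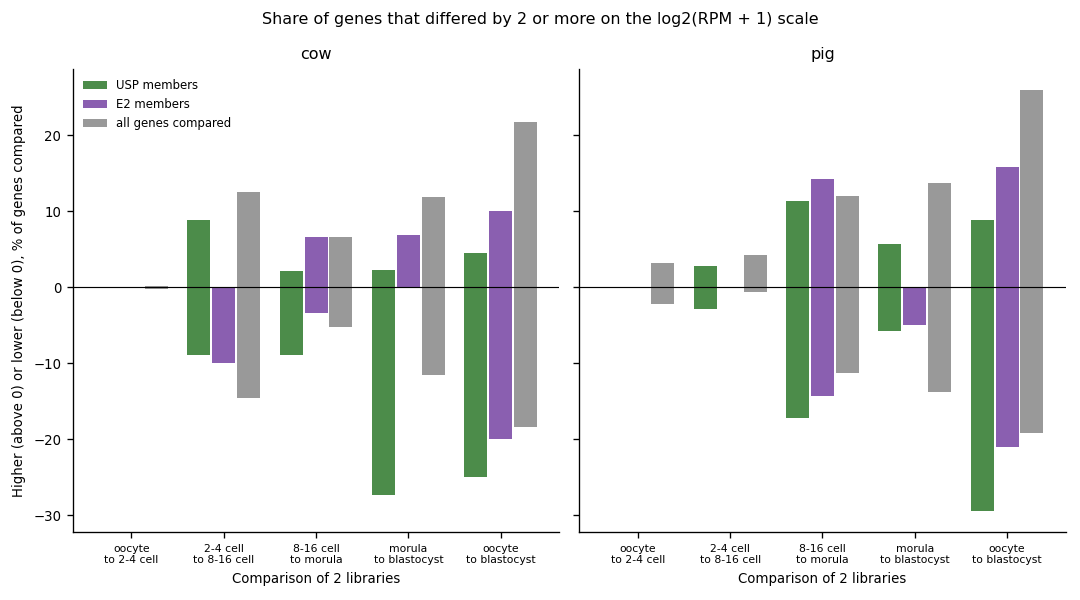
Share of compared genes that were higher (bars above 0) or lower (bars below 0) past the threshold of 2 in log2(RPM + 1), in percent, for USPs (green), E2 genes (purple) and all genes of the table (grey), at each step and from oocyte to blastocyst, cow on the left and pig on the right. From oocyte to blastocyst the green bar below 0 is longer than the grey one in both species, at the cow step from morula to blastocyst there is no purple bar below 0, and no member bar appears at the first step.

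A few members took different courses in cow and pig. USP38, whose row carries 9.53, 8.11, 99.4, 59.2 and 31.9 RPM in cow (chromosome 17, 14889392 to 14921767), had 427, 320.2, 257, 87.6 and 23.6 RPM in pig (chromosome 8, 84567221 to 84601054). The pig level fell 18.1-fold (14.6 to 22.7) from its maximum in the oocyte library, while the cow level was lowest before the 8-16 cell stage and differed by 1.64 over the whole course. USP45, a protease that acts on the repair nuclease subunit ERCC1, had 8.11, 6.31, 48.8, 123 and 20.7 RPM in cow, with its maximum at the morula and a difference of 1.25. In pig it had 218, 261, 207, 36.3 and 17.7 RPM, a 12.3-fold fall (9.59 to 16.1). USP35 had 6.29, 13.1, 47.7, 19.7 and 2.19 RPM in cow, a difference of -1.19, and 5.63, 12.3, 8.53, 51.6 and 39.1 RPM in pig, a 6.96-fold rise (4.30 to 11.9). USP50, a USP taken to be inactive as a protease, had 0 reads at both early cow stages and then 2.58, 12.1 and 1.69 RPM, and in pig 6.22, 6.52, 8.84 and 3.66 RPM and then 3 reads, a difference of -2.0 that lies at the threshold itself. The pig rows of USP50 and USP8 overlap by 998 bases on opposite strands. Each of these courses is read from 1 library per stage, and no difference between the species was tested.

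**Figure D5:**
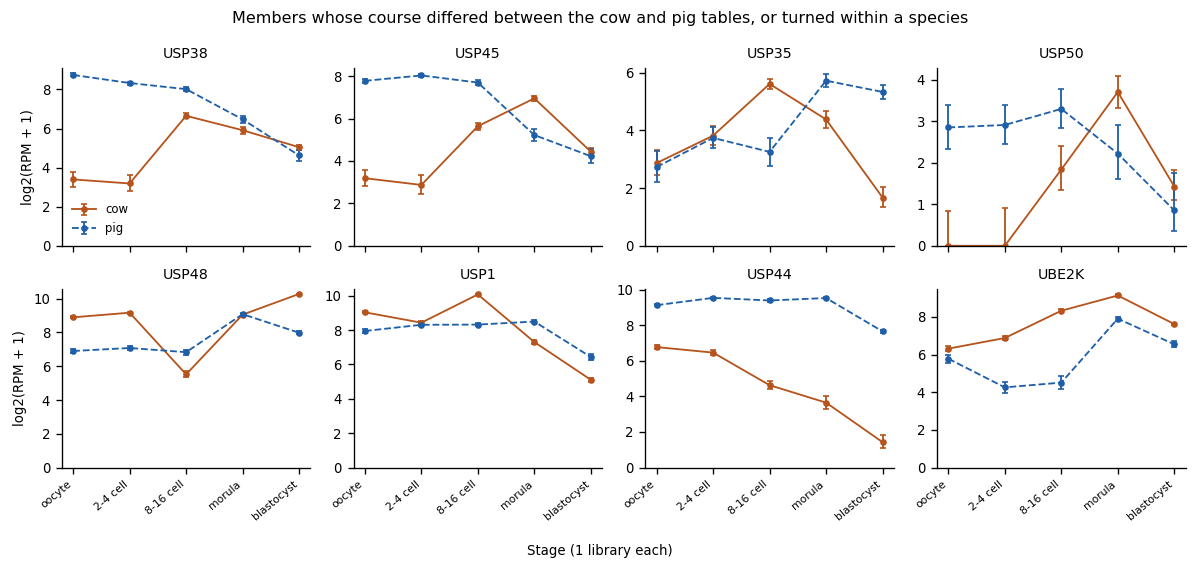
Levels of 8 members whose course differed between the tables or turned within a species, as log2(RPM + 1) at the 5 stages, cow in solid orange and pig in dashed blue, 1 library per point, with 95% Wilson intervals for counting error as bars. Cow USP38 and USP45 climb from below 10 RPM at the early stages. The pig USP38 line runs down from 427 RPM at the oocyte, and the pig USP45 line from 261 RPM at the 2-4 cell stage. Cow USP48 dips to 44.9 RPM at the 8-16 cell stage only.

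The rest of the pathway gives the setting of these changes, from lists of genes chosen by function. The counts of these lists stand beside 21.8% higher and 18.4% lower for the whole cow table and 26% and 19.2% for the pig one, with medians of 0.18 and 0.43. Among ubiquitin and its relatives 3 of 8 were higher and none lower in cow (median 1.88), and 3 of 5 higher and none lower in pig (median 2.29). RPS27A, which makes ubiquitin fused to a ribosomal protein, rose in cow from 21.9 to 188 RPM, and SUMO3 rose from 1.62 to 30.0 RPM. In pig UBB, a gene of ubiquitin repeats, rose from 64.8 to 321 RPM, NEDD8 from 1.78 to 21.2 RPM and URM1 from 2.66 to 19.8 RPM. E1 enzymes had 1 of 8 higher in cow (ATG7, 18.5 to 117 RPM) and 1 of 7 in pig (UBA7, 3.26 to 16.1 RPM), and none lower.

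Among ligases, the cullin and SCF list had 3 of 18 higher and 2 lower in cow and 5 of 18 higher and 2 lower in pig. CUL2, the scaffold of the VHL ligase, was higher in both, going from 6.09 to 52.7 RPM (cow) and from 2 reads to 39.9 RPM (pig). SKP2, the F-box protein that targets the cell cycle inhibitor CDKN1B, was lower in both, from 262 to 39.3 RPM and from 251 to 30.0 RPM. Of the anaphase-promoting complex and its regulators 2 of 17 were higher and 4 lower in cow, and 4 of 15 higher and 4 lower in pig. Its meiotic inhibitor FBXO43 went from 88.6 RPM in cow and 182 RPM in pig to 0 reads at the blastocyst, and its mitotic inhibitor FBXO5 from 892 to 19.5 RPM and from 219.7 to 53.4 RPM. The core subunit CDC27 was lower in both (558 to 56.6 and 365 to 59.0 RPM), and CDC23 was higher in both (7.30 to 36.0 and 2.37 to 26.0 RPM). HECT ligases had 6 of 26 higher and 3 lower in cow and 4 higher and 4 lower of 26 in pig. In cow HUWE1 rose from 78.9 to 595 RPM and in pig from 87.6 to 451 RPM, and HERC2 from 55.4 to 325 RPM and from 18.1 to 87.1 RPM. HACE1 was lower in both (283 to 40.8 and 86.2 to 15.3 RPM), and SMURF2 fell in pig from 1274 to 38.6 RPM.

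Deubiquitinases of other families had 5 of 29 higher and 7 lower in cow, and 3 of 30 higher and 1 lower in pig. UCHL1, a protease of oocytes and neurons, went from 21.9 RPM to 1 read in cow. In pig, where it was the single one lower, it went from 48.9 RPM to 0 reads. OTUD7B was higher in both, from 7.30 to 91.7 RPM and from 1.18 to 184 RPM. Partners of USPs had 2 of 9 higher and 3 lower in cow, and 2 of 6 higher and 1 lower in pig. Of these G3BP1, a partner of USP10, rose in both (27.0 to 152 and 11.8 to 90.4 RPM). G3BP2 of the same list fell in cow from 584 to 81.1 RPM, a difference of -2.83. USP10 itself differed by -0.98 in cow (188 to 94.5 RPM) and by 1.64 in pig (37.6 to 119 RPM). Interferon response genes, the setting in which USP18 and UBE2L6 are known, had 1 of 6 lower in cow, IFIT3. In pig 3 of 4 were lower, MX1 and IFNAR1 among them, and IRF7 was higher, reaching 6.43 RPM.

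Reads of some members cannot be placed with certainty. In cow 7 of 77 members and in pig 19 of 62 overlap the span of another row, all on the opposite strand. Several USPs and E2 genes are close paralogs, among them USP4, USP11 and USP15, USP20 and USP33, and UBE2Q1 and UBE2Q2, and a change seen in 1 of them holds only as far as its reads were placed on the right copy.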

How the data were processed

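RNA was measured in 10 libraries, 1 for each of 5 stages in cow and pig. Per the labels' protocols, RNA was isolated with the PicoPure kit and amplified with Ovation RNA-Seq V2, followed by 8 cycles of PCR. No molecular identifiers are described, so intervals and floors cover counting error only. The submitters' processing notes name Trim Galore 0.6.4, HISAT2 2.1.0 and the builds UMD3.1 and Sscrofa11.1. The counting method, annotation, use of strand and treatment of duplicate reads are not given in the sources used here.

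The values the authors deposited were read as log2 RPM, with 0 reads written as 0.9 of a read. No label or header states this unit: it was worked out from the values, and every RPM, read count and library total rests on it. From the value of 1 read in each column, read counts were recovered (within 0.1 read of a whole number for 99.9849% of values in the cow blastocyst column and 100% in the others). RPM was not divided by gene length. Read totals ranged from 3002751 to 14182046, and 3 reads were worth 0.212 to 0.999 RPM.

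Differences were taken within a species as log2(RPM + 1), keeping 0 reads at the deposited 0.9 of a read, over all rows. This scale understates changes of genes with low values. Levels at 0 reads are given as 0, folds against 0 reads as lower bounds at 3 reads, and no fold is given against 1 to 3 reads. Intervals are 95% Wilson for levels and exact binomial for folds. Python 3.11.15 with numpy 2.4.6, pandas 2.3.3 and scipy 1.17.1 was used, and the steps were tested on simulated data. Of repeated symbols the row with the highest mean was kept.

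Named members are, per species, the 8 with the widest rise and the 8 with the widest fall from oocyte to blastocyst, the 3 widest at each step, those called in opposite directions in both species (there were none), and a list chosen by role. Other members are named because they passed the threshold or because a result turns on them. Members and lists were chosen with earlier results of these data known. A few genes, 1 member among them, are counted and not reported here by name. Alternatives were other pseudocounts, minima, thresholds and scalings, equal depth, and 0 reads as 0.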

Additional observations from a re-analysis of the deposited data

Results flagged for a closer look

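For 4 members the cow and pig libraries went opposite ways from oocyte to blastocyst, by at least 1 on the log2(RPM + 1) scale in each species. The value given is the cow difference minus the pig difference, each from 1 library per stage, and the gap between the species was not tested. It was 5.77 for USP38, which differed by 1.64 in cow and -4.12 in pig. It was 4.80 for USP45 (1.25 in cow, -3.55 in pig). It was -3.79 for USP35 (-1.19 in cow, 2.60 in pig). For USP50 it was 3.19 (1.19 in cow, -2.0 in pig), where the cow oocyte library had 0 reads and the pig blastocyst library 3 reads. In each of the 4 only the pig difference passed the threshold of 2.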

How the results depend on the processing

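Of 117 recomputed counts of called members, 89 stayed within 1.5 times the reported one and 28 moved, and of 753 recomputed differences of single members none changed sign where it had been called. A threshold of 1 in place of 2 moved the cow step counts, from oocyte on, to 6, 41, 34 and 36, and the pig ones to 11, 5, 30 and 31. From oocyte to blastocyst it gave 19 higher and 29 lower in cow, and 10 higher and 23 lower in pig, and 22 members called the same way in both species. A pseudocount of 5 RPM gave 3 for the cow step to the morula, 8 for the cow step to the blastocyst, 2 higher in cow from oocyte to blastocyst, 3 members called the same way in both species, and 0 and 2 for the pig steps to the 8-16 cell stage and to the blastocyst. A pseudocount of 0.5 RPM gave 1 for the first step in cow and in pig, and 8 for the last pig step. Median scaling gave 9 for the last cow step, and 1 and 3 for the pig steps to the 8-16 cell stage and to the blastocyst. Scaling to non-mitochondrial reads gave 8 for the last pig step, equal depth gave 1 for the first pig step, and counting 0 reads as 0, an alternative chosen after seeing the data, gave 8 for the last pig step. The cause of these shifts was not tested. Of 36 called named members, 10 came below the threshold in at least 1 setting. With a pseudocount of 5 RPM these included UBE2G2 (1.5), UBE2J1 (1.82), UBE2U (-1.52) and USP3 (1.70) in cow, and UBE2J1 (2.00, just short), UBE2T (-1.70), USP28 (-1.69) and USP4 (1.81) in pig. Pig USP8 did so with median scaling (-1.99). No paired analysis was possible because each stage has 1 library. Low depth limits members such as UBE2S, USP49 and USP50, whose levels rest on a few reads in some libraries.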
